A study of Schizosaccharomyces pombe with 4 samples.

Results

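The 5.8S ribosomal RNA was read here through its 2 annotated gene copies, RDN58-1 and RDN58-2, which are 2 of the 7905 features named in the deposited files. All records on the minus strand of chromosome XII that name either copy were taken, which gave 116346 of the 549604 reads that name any feature. The libraries come from CRAC, in which RNA is crosslinked to protein by ultraviolet light in living cells, the tagged protein is purified under stringent conditions, and the RNA still attached is copied to cDNA and sequenced. There were 2 Seb1-HTP libraries from a Schizosaccharomyces pombe strain carrying the allele Seb1-HTP::KAN, and 2 Untagged control libraries from its parental strain, which has no tagged allele. All are of mating type h+ and carry ade6-M216 and leu1-32, and also ura4-delta_18 and his3delta_1. HTP is a tandem tag of polyhistidine, a TEV protease site and protein A. Both strains grew exponentially in YES, a rich medium, at 30 °C and were irradiated for 3 min, and the 2 libraries of a strain are biological replicates, per the series design.

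The 5.8S rRNA is cut, together with the 18S and 25S rRNAs, out of 1 long precursor that RNA polymerase I transcribes from the ribosomal DNA (rDNA). The internal transcribed spacers on its upstream and downstream sides are removed during maturation, and the mature molecule pairs with 25S rRNA inside the large ribosomal subunit. Seb1 binds RNA, resembles Nrd1 of budding yeast and travels with RNA polymerase II, so that rRNA is not its usual kind of target. The comparison of tagged and untagged strains asks which RNA is recovered with Seb1 beyond what the purification yields on its own.

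The reads are from S. pombe, but the deposited records place them on the genome of Saccharomyces cerevisiae, and the gene names and positions are of that species. Both copies lie on chromosome XII at a fixed distance from each other, so the second was laid over the first. The files do not give the gene's ends. The reads that name 5.8S and the nearest precursor reads that do not bracket them: the gene covers at least XII 455420 to 455557 (138 nt) and at most XII 455407 to 455575 (169 nt) in copy 1. In copy 2 these limits are XII 464557 to 464694 and XII 464544 to 464712. The gene runs on the minus strand, so its 5′ end is at the higher number, and XII 455575 is counted as nt 1 in the plots. The sources used here do not give the release of the S. cerevisiae genome, and its sequence was not used. The S. pombe gene from which these molecules derive is shown instead, as annotated by RefSeq on ASM294v3, at III 9842 to 10006 on the minus strand. It is 165 nt long, and the 3 annotated copies have 1 sequence between them. It is given so that a reader can see how short the molecule is against the read lengths below, and no base is capitalised because the deposited positions could not be laid on it.
S. pombe 5.8S rRNA gene: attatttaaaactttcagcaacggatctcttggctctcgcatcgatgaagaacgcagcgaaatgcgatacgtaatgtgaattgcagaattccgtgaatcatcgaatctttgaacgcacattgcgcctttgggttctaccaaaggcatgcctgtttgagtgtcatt
The letters TGTA, as RNA UGUA, which are 1 form of the sequence Seb1 is known to bind, do not occur in it on either strand. Shorter or other forms were not looked for, so the gene is not shown to lack a Seb1 site. Of 76190 windows of 165 nt along the S. pombe genome, 76.4% hold these letters on one strand or the other. An RNA carries 1 strand only, and the share for a single strand was not counted.

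The libraries differ widely in depth, with 268030 and 231656 named reads in Seb1-HTP 1 and 2, and 4579 and 45339 in Untagged control 1 and 2. Most named reads of every library came from rDNA. The 25S rRNA alone took 40.4% and 38.9% of them in Seb1-HTP 1 and 2, but 80.5% and 89.0% in controls 1 and 2. It therefore sets how large any other share can be. Reads of 5.8S therefore are given both as a share of all named reads and as a share of the named reads left once 25S is taken out. That second total was 159830 and 141559 reads for Seb1-HTP, but 892 and 4965 for the controls. Intervals below are 95% Wilson intervals and, like the limit of 3 reads used for a count of 0, cover counting error only.

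Seb1-HTP libraries held a larger share of 5.8S among all named reads, and this difference was not seen once 25S reads were left out. Of all named reads, 5.8S made up 24.6% (24.4 to 24.8) and 20.8% (20.6 to 21.0) in Seb1-HTP 1 and 2, from 65959 and 48187 reads. In the controls it made up 5.18% (4.57 to 5.86) and 4.33% (4.15 to 4.52), from 237 and 1963 reads. Both Seb1-HTP libraries lay above both controls. The means were 22.7% ± 2.69 and 4.75% ± 0.598 (SD, n = 2 each), with exact two-sided permutation p = 0.333, which is the smallest value that 2 against 2 libraries allow. Over the totals without 25S, 5.8S made up 41.3% (41.03 to 41.5) and 34.0% (33.8 to 34.3) for Seb1-HTP, against 26.6% (23.8 to 29.6) and 39.5% (38.2 to 40.9) in the controls. Here the groups overlap, since control 2 lies between both Seb1-HTP libraries (37.7% ± 5.11 and 33.1% ± 9.17, exact permutation p = 0.667). Set only against 18S rRNA of the small subunit, 5.8S was 57.2% and 55.0% of the reads of both molecules for Seb1-HTP, against 56.4% and 72.1% for the controls. That ratio was added after the data were seen, and it does not place Seb1-HTP above the controls. Counted as distinct intervals, each start and end once, the share of all named fragments was 10.7% and 6.95% in Seb1-HTP, against 6.83% and 5.66% in the controls.

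**Figure D1:**
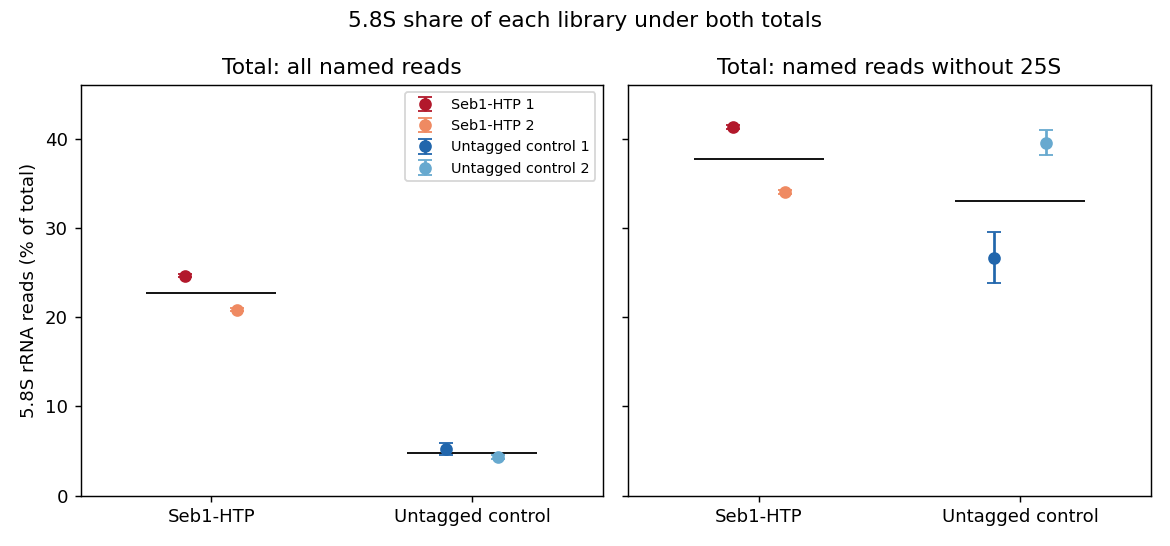
Share of reads naming 5.8S rRNA in each library, as percent of all named reads (left) and of named reads without 25S (right); points are libraries with 95% Wilson intervals and black lines are group means. On the left the Seb1-HTP libraries, at 24.6% and 20.8%, lie above the controls at 5.18% and 4.33%, while on the right the groups overlap.

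The same holds for each gene copy in a test fitted across all features. With totals of all named reads, 10 of 1208 features tested were called at an adjusted p under 0.05 (0.828%; edgeR quasi-likelihood test, Benjamini-Hochberg adjustment), of which 7 were higher (0.579%) and 3 lower (0.248%). RDN58-1 had 33031 and 24158 reads in Seb1-HTP, against 106 and 957 in the controls, with a log2 fold change of 2.36 (SE 0.38, edgeR adjusted p = 1.71e-07). RDN58-2 had 32928 and 24030 reads in Seb1-HTP, against 131 and 1006 in the controls, with a log2 fold change of 2.16 (SE 0.37, edgeR adjusted p = 1.46e-06). Both copies rose in this test, but they hold the same molecule and are not separate evidence. The median log2 fold change over all 1208 features was 4.86. No read in either control was found for 835 of them, and over the other 373 the median was 0.31. Both calls were lost with TMM factors (log2 fold changes 3.77 and 3.63, edgeR adjusted p = 0.307 for each), with DESeq2 (3.23 and 3.11, adjusted p = 0.984 for each) and without Seb1-HTP 1 (2.24 and 2.03, edgeR adjusted p = 0.0734 for each), and that of RDN58-2 also without Seb1-HTP 2 (2.27, edgeR adjusted p = 0.0785). With distinct intervals the log2 fold changes shrank to 0.64 and 0.37 (edgeR adjusted p = 0.539 and 0.668). With 25S reads left out of counts and totals, 1 of 1202 features was called (0.0832%), and it was neither copy. RDN58-1 then had a log2 fold change of 0.28 (SE 0.51, edgeR adjusted p = 0.776), and RDN58-2 one of 0.10 (SE 0.50, edgeR adjusted p = 0.870). YLR154W-E, an open reading frame that the same records name over RDN58-1, had nearly the same counts, and no separate RNA can be read from it.

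What did differ was where in 5.8S the reads lay, taken as shares of the 5.8S reads of each library. In Seb1-HTP libraries most reads began at the 5′ end of the gene and ran over its first part, whereas control reads were short and stacked in the middle. Coverage peaked at XII 455535 and XII 455538 in Seb1-HTP 1 and 2, where 82.6% and 73.4% of 5.8S reads covered the position. In controls 1 and 2 it peaked at XII 455478 and XII 455487, with 96.6% and 75.0% of 5.8S reads. Coverage stayed at or above the midpoint of its maximum over 70 and 73 nt for Seb1-HTP, against 43 and 41 nt for the controls. As a description over the 169 positions, which share reads and are not independent, coverage correlated with Pearson r = 0.995 between the Seb1-HTP libraries and 0.921 between the controls. Between the kinds r ran from -0.0887 to 0.207. The last base of the inner limits, near the 3′ end, was covered by 0.124% and 0.625% of 5.8S reads in Seb1-HTP, against 3.38% and 0.560% in the controls, so the 3′ end was almost unread in every library. Over the 49 nt on that side, XII 455407 to 455455, 10 of the positions with at least 50 reads in both Seb1-HTP libraries carried a substitution in at least 50% of covering reads in 1 or both, compared with 3 positions over the 120 nt before them. Counted only where both Seb1-HTP libraries reached 50%, there were 2 positions over the 49 nt and 3 over the 120 nt. The larger count on the 3′ side thus rests on positions that reached 50% in 1 library alone. The part of sequence mismatch in the low 3′ coverage was not tested. In control 1, which has 237 reads of 5.8S, 21 positions within the inner limits had no read.

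**Figure D2:**
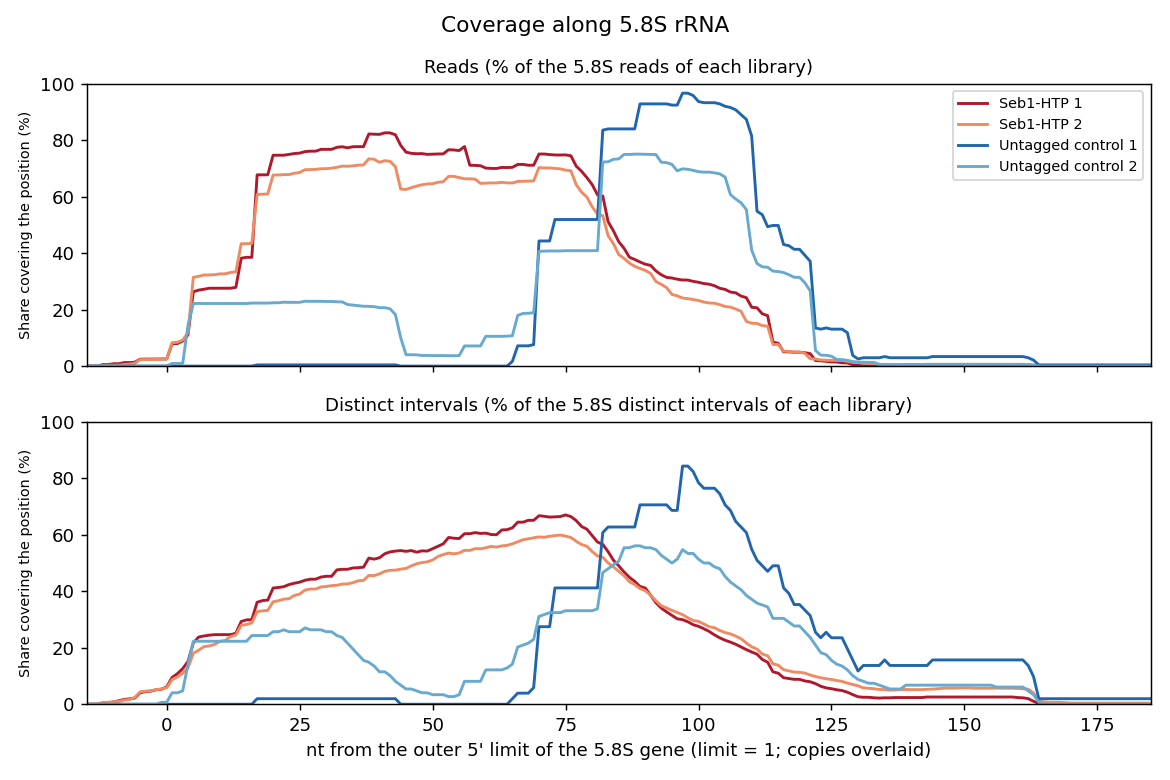
Coverage along 5.8S rRNA, in nt from the outer 5′ limit of the gene, as percent of the 5.8S reads (top) and of the distinct 5.8S intervals (bottom) of each library; lines are the 4 libraries. Both Seb1-HTP lines are high over the first part of the gene, peaking at 82.6% and 73.4% of reads, and both control lines peak further downstream, at 96.6% and 75.0%.

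The 5′ ends of reads give the clearest view of this. The most frequent 5′ end in Seb1-HTP was XII 455559, with 29.2% and 17.3% of 5.8S reads, against 0.422% (1 read) and 0 of 1963 reads in the controls. The next, XII 455571, held 15.2% and 19.6% of Seb1-HTP reads, against 0 of 237 and 7.69% of control reads. XII 455562 held 10.3% and 9.94% in Seb1-HTP and no read in either control, where a count of 0 allows up to 1.27% in control 1 and 0.153% in control 2. Together with XII 455556 and XII 455575, these 5 positions hold 67.03% and 59.3% of Seb1-HTP reads, against 0.422% and 8.66% of control reads. All 5 lie within 20 nt at the start of the gene. The control reads began elsewhere. XII 455494 was the 5′ end of 31.6% and 31.3% of control reads, against 3.32% and 2.87% of Seb1-HTP reads. XII 455506 was that of 36.7% and 25.4% of control reads, against 4.62% and 5.17% of Seb1-HTP reads. These positions lie in the middle of the gene, and both control libraries use them. Another frequent control end, XII 455572, is at the start of the gene and was met in control 2 alone among the controls, with 13.5% of its reads against 2.23% and 2.65% in Seb1-HTP.

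**Figure D3:**
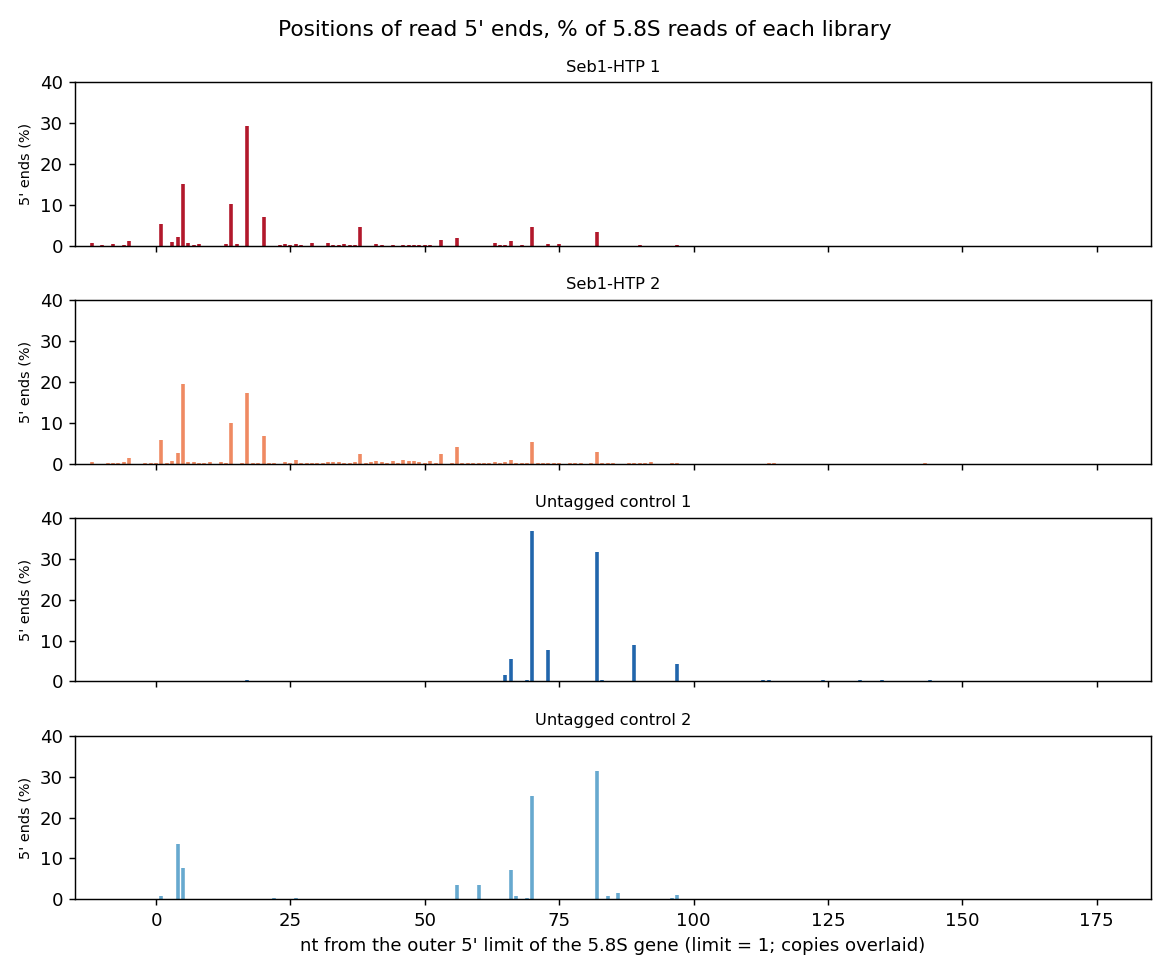
Positions of read 5′ ends along 5.8S rRNA, in nt from the outer 5′ limit of the gene, as percent of the 5.8S reads of each library (1 panel per library, same vertical scale). Seb1-HTP ends gather at the start of the gene, with 67.03% and 59.3% at 5 positions, while control ends gather in the middle, and control 2 has a second group at the start.

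Taken over the first 40 nt, 83.1% (82.8 to 83.4) and 75.0% (74.6 to 75.4) of 5.8S reads began at or before XII 455536 in the Seb1-HTP libraries. In the controls, 1 read of control 1 did so (0.422%, 0.0745 to 2.35) and 23.0% (21.2 to 24.9) of control 2 reads. The groups do not overlap (means 79.0% ± 5.72 and 11.7% ± 15.98, SD, n = 2 each, exact permutation p = 0.333), but the controls differ from each other by more than the Seb1-HTP libraries do. As distinct intervals the shares were 59.0% and 52.9% in Seb1-HTP, and 1.52% and 28.1% in the controls. The 40-nt limit was set after the data were seen.

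A test in 20-nt bins put reads by their midpoint and was fitted along the whole rDNA. With totals of all named reads, 28 of 226 bins were called (12.4%; edgeR quasi-likelihood test), 23 of them higher (10.2%) and 5 lower (2.21%). Bins are numbered from the outer 5′ limit, and in 5.8S bins 2, 3 and 4 rose. The calls of bins 2 and 4 were lost with TMM factors (edgeR adjusted p = 0.361 and 0.222), with DESeq2 (adjusted p = 0.308 and 0.174), and without Seb1-HTP 1 (edgeR adjusted p = 0.464 each) or Seb1-HTP 2 (edgeR adjusted p = 0.521 each). With distinct intervals bin 2 was also lost (edgeR adjusted p = 0.345). With 25S left out, 1 of 96 bins was called (1.04%), and it was bin 3 of 5.8S, XII 455516 to 455535. It held 33020 and 20681 reads in Seb1-HTP, against 0 and 8 in the controls, which is 20.7% and 14.6% of the total, against 0% and 0.161%. Its log2 fold change was 7.44 (SE 1.20, edgeR adjusted p = 3.10e-07). Its neighbours did not pass: bin 2 had a log2 fold change of 1.06 (SE 1.03, edgeR adjusted p = 0.539) and bin 4 one of 1.99 (SE 1.36, edgeR adjusted p = 0.409). On the other side, bin 5, XII 455476 to 455495, held 4.39% and 2.97% of the total without 25S in Seb1-HTP, against 15.5% and 15.8% in the controls. Bin 6, XII 455456 to 455475, held 1.30% and 1.13% of it in Seb1-HTP, against 10.2% and 11.7% in controls 1 and 2. In neither bin do the groups overlap, but the log2 fold changes of -2.09 (SE 0.89) and -3.18 (SE 1.14) were not called (edgeR adjusted p = 0.184 for each). Both bins were called lower when Seb1-HTP 1 (edgeR adjusted p = 0.00500 and 0.0464), control 1 (1.15e-05 and 3.28e-07) or control 2 (0.000157 and 4.08e-06) was left out, but not without Seb1-HTP 2 (0.172 for each). Bin 3 was not called with TMM factors (log2 fold change 7.54, edgeR adjusted p = 0.240) or with distinct intervals (4.33, edgeR adjusted p = 0.270).

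A midpoint moves with read length, and read lengths differ between the groups, so the bins were also counted by the read's 5′ end. With 25S left out, 2 of 92 bins were then called (2.17%; 1 higher, 1.09%, and 1 lower, 1.09%), and both are in 5.8S. Bin 1, XII 455556 to 455575, held the 5′ ends of 47565 and 31349 Seb1-HTP reads, against 1 and 439 control reads. This is 29.8% and 22.1% of the total without 25S in Seb1-HTP, and 0.112% and 8.84% in the controls, and it rose by 2.52 on the log2 scale (SE 0.52, edgeR adjusted p = 0.000224). Bin 5, XII 455476 to 455495, held 2446 and 2067 Seb1-HTP reads, against 107 and 702 control reads. This is 1.53% and 1.46% of the total in Seb1-HTP, and 11.996% and 14.1% in the controls, and it fell with a log2 fold change of -3.13 (SE 0.85, edgeR adjusted p = 0.0136). Bin 3 had a log2 fold change of 1.15 by 5′ end (SE 1.51, edgeR adjusted p = 0.626). Which bin was called thus depended on which point of the read was counted. The counts by 5′ end were fitted with library totals alone. TMM factors, DESeq2, distinct intervals and leaving out a library were not tried on them. With 25S left out and either point, bins 1 to 3 had positive and bins 5 and 6 negative log2 fold changes. Bin 4 changed sign, from 1.99 by midpoint to -2.14 by 5′ end. With totals of all named reads, bin 5 stood at -0.095 by midpoint and -1.10 by 5′ end (edgeR adjusted p = 0.948 and 0.490). Bin 6 stood at -1.16 and 0.063 (edgeR adjusted p = 0.515 and 0.990). By 5′ end, bins 1 and 2 were called higher with that total, among 25 of 219 bins (11.4%).

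**Figure D4:**
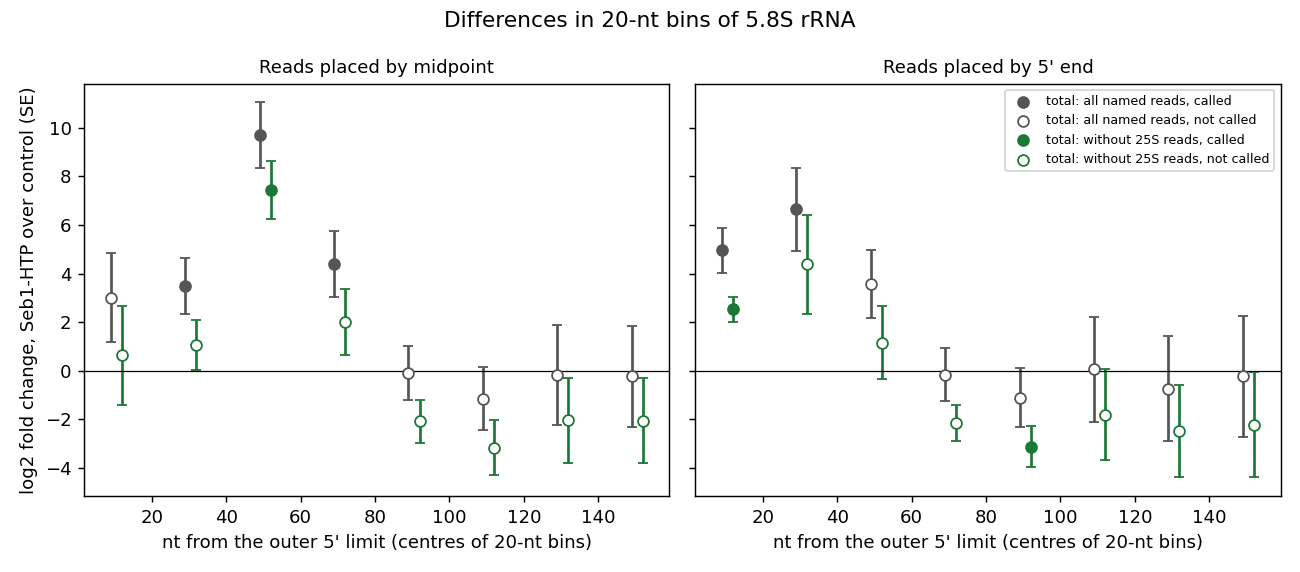
Log2 fold change of Seb1-HTP over Untagged control in 20-nt bins along 5.8S rRNA, with reads placed by midpoint (left) and by 5′ end (right); bars are standard errors, filled points have an edgeR adjusted p under 0.05, and grey and green stand for totals with and without 25S reads. Without 25S the called bins are bin 3 at 7.44 by midpoint, and bin 1 at 2.52 and bin 5 at -3.13 by 5′ end.

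Single intervals show the same shift. The most frequent Seb1-HTP interval by mean share, XII 455494 to 455559 (66 nt), held 5.07% and 2.86% of 5.8S reads in Seb1-HTP and none in the controls. XII 455463 to 455571, 109 nt long, held 2.23% and 3.36% in Seb1-HTP, and again no control read. The 5 leading Seb1-HTP intervals together held 16.6% and 14.0% of reads, against 0% and 0.764% in the controls. Among them XII 455520 to 455559 (40 nt) rests on Seb1-HTP 1, with 4364 reads against 5 in Seb1-HTP 2. The leading control interval, XII 455455 to 455494 (40 nt), held 22.8% and 20.9% of control reads, against 2.39% and 0.0560% in Seb1-HTP. The 5 leading control intervals, all 40 or 41 nt long, held 60.3% and 47.3% of control reads, against 6.72% and 0.523% in Seb1-HTP. Control reads were thus more concentrated, with 25.3% and 20.9% in the library's own leading interval, against 6.62% and 4.67% in Seb1-HTP (exact permutation p = 0.333). Control intervals are not foreign to the tagged libraries. Of the 51 and 148 distinct control intervals, 68.6% and 66.9% also occurred in Seb1-HTP 1. In the other direction, 3.32% of the 1055 distinct intervals of Seb1-HTP 1 occurred in control 1 and 9.38% in control 2, shares that the small number of control intervals keeps low.

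Reads of 5.8S were longer with Seb1-HTP. Mean interval length was 63.4 and 57.7 nt in Seb1-HTP, against 39.8 and 39.8 nt in the controls (60.6 ± 4.01 and 39.8 ± 0.0450, SD, n = 2 each, exact permutation p = 0.333). The medians were 64 and 51 nt in Seb1-HTP and 40 and 40 nt in the controls. Intervals over 60 nt made up 57.5% and 42.9% of Seb1-HTP reads, against 1.27% and 3.52% of control reads. All libraries had a sharp mode, at 40 and 39 nt in Seb1-HTP and at 40 and 40 nt in the controls, and lengths of 39 to 41 nt took 24.2% and 27.5% of Seb1-HTP reads, against 70.5% and 74.2% of control reads. The same lengths took 21.8% and 23.4% of all records' reads in Seb1-HTP, and 10.7% and 8.70% in the controls, so in the controls these lengths were more frequent in 5.8S than in the library as a whole. The files mix single reads and pairs joined into 1 interval, and the part of read length in this mode was not tested. Mean lengths of 25S reads were 60.9 and 60.7 nt in Seb1-HTP, against 55.3 and 66.9 nt in the controls. Mean lengths of 18S reads were 66.6 and 54.8 nt in Seb1-HTP, against 65.8 and 44.8 nt in the controls. For both molecules the groups overlap, and the part of each library's general read length was not tested. Within the middle of 5.8S alone, bins 4 to 6, mean lengths were 59.5 and 46.6 nt in Seb1-HTP and 39.6 and 39.05 nt in the controls.

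**Figure D5:**
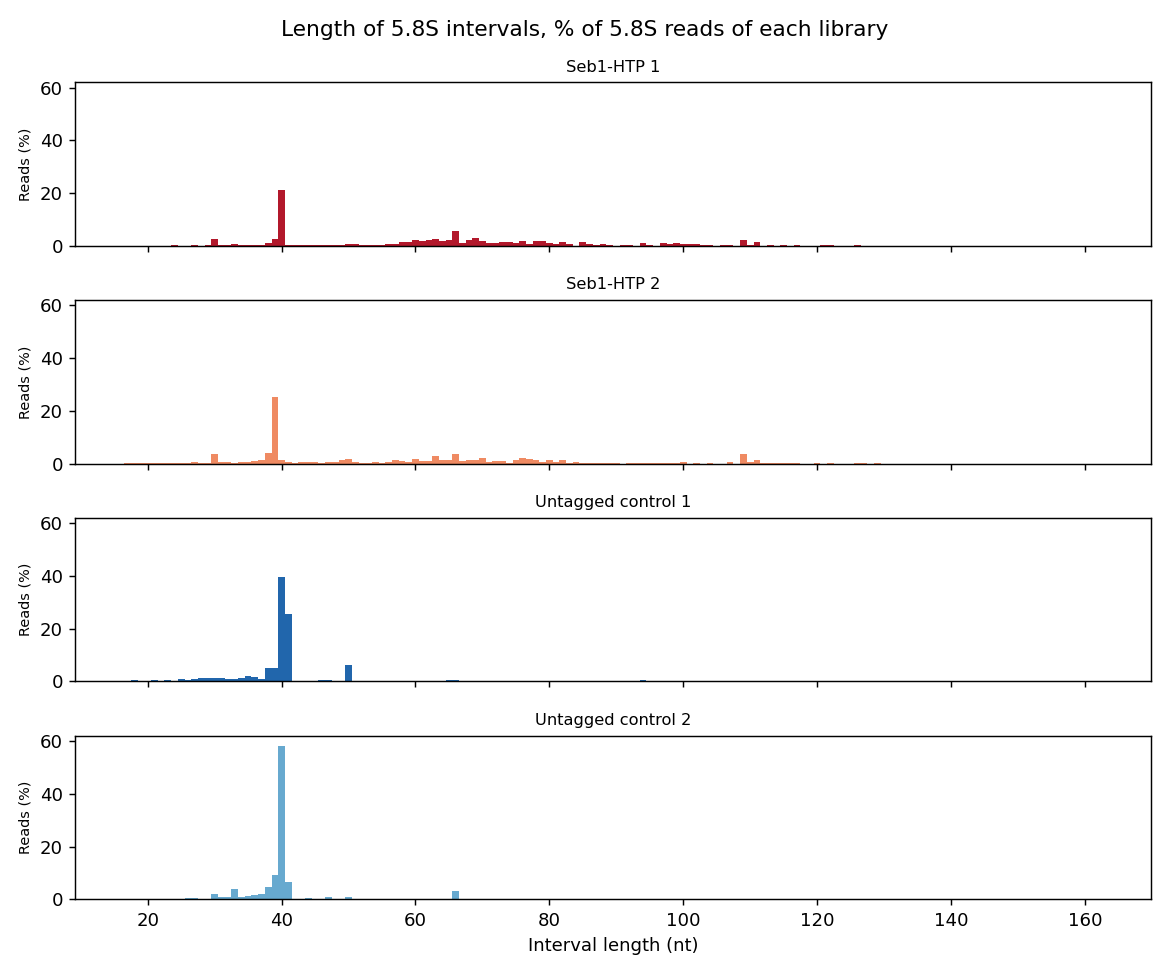
Length of 5.8S intervals in nt, as percent of the 5.8S reads of each library (1 panel per library, same vertical scale). Control reads are gathered at 40 nt, and Seb1-HTP reads have a mode at 40 or 39 nt and a broad second group above 60 nt, with 57.5% and 42.9% of reads.

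Deletions and substitutions are listed for each record, and in CRAC a deletion often marks the base that was crosslinked, because reverse transcriptase skips it. The overall deletion rate of 5.8S was not higher with Seb1-HTP. It was 10.1% (9.90 to 10.4) and 12.9% (12.6 to 13.2) in Seb1-HTP, against 36.7% (30.8 to 43.0) and 13.0% (11.6 to 14.6) in the controls, with overlapping intervals for Seb1-HTP 2 and control 2. Of the 87 control 1 reads with a deletion, 81 have it at XII 455493, and 59 of these are a single interval, XII 455466 to 455506. Each start and end was also scored once, by its first listed record alone. The rates were then 11.8% and 12.1% in Seb1-HTP, and 19.6% and 10.1% in the controls, where the groups overlap. Records of the same interval can differ, so these are not shares of intervals that carry any deletion.

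The deleted positions did differ. In Seb1-HTP they gathered at XII 455507 to 455509, on the downstream flank of the coverage maximum. Of reads that cover all 3 positions, 7.10% (6.87 to 7.33) and 11.4% (11.01 to 11.7) had a deletion there in Seb1-HTP 1 and 2, which is 49.6% and 57.2% of all reads with a deletion. In the controls, 0 of 17 and 1 of 366 covering reads had one (0.273%, 0.0482 to 1.53). A count of 0 among 17 reads allows up to 17.6%, so control 1 could not show a rate like that of Seb1-HTP, while control 2 lies below both Seb1-HTP intervals. The covering reads are not alike, however. In controls 1 and 2, 13 of 17 and 141 of 366 began at XII 455510, the base next to the stretch. In Seb1-HTP this was 757 of 46697 and 441 of 31363. Many control reads thus hold the stretch at a read end, and the part of read ends in this contrast was not tested. The deletions do not come from a few fragments: 125 of 669 and 252 of 937 distinct covering intervals carried one in Seb1-HTP, against 0 of 2 and 1 of 31 in the controls. The position with the most deletion reads was XII 455507 in both Seb1-HTP libraries, deleted in 4.29% and 6.23% of Seb1-HTP reads and in none of the controls. The stretch was chosen after its values were seen and carries no test. Another Seb1-HTP position, XII 455496, was deleted in 4.28% and 1.99% of reads, and in Seb1-HTP 1 1395 of its 1816 deletions sat in the interval XII 455494 to 455559. Among positions with at least 50 reads in every library, XII 455455 had the highest mean deletion share in Seb1-HTP, at 2.78% and 19.6%, against 5.68% and 1.34% in the controls, so its replicates disagree and the groups overlap. The leading control 2 positions were others again, with XII 455494 deleted in 5.85% of reads, XII 455472 in 5.99% and XII 455539 in 18.75% of 416 reads.

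Substitutions were listed for 91.3% and 86.8% of Seb1-HTP reads, against 45.6% and 49.5% of control reads (89.0% ± 3.18 and 47.5% ± 2.79, SD, n = 2 each, exact permutation p = 0.333). Some of these substitutions are at fixed positions. At 4 positions nearly every covering read differed from the S. cerevisiae base in each library with at least 20 reads there. At XII 455546 this was 98.4% and 98.5% in Seb1-HTP and 97.6% in control 2, and at XII 455562 it was 99.7% and 99.7% in Seb1-HTP and 99.5% in control 2. The others were XII 455573 and XII 455587. All lie at or before the start of the gene or within its first part, and reads that cover any of them were 76.8% and 70.0% of Seb1-HTP reads, against 0.422% and 23.0% of control reads. With these positions left out, reads with a substitution were 73.3% and 63.3% in Seb1-HTP, and 45.1% and 33.8% in the controls, which still do not overlap. In bins 4 to 6 alone they were 70.4% and 57.3% in Seb1-HTP, and 43.7% and 34.6% in the controls. A longer read has more bases that can differ, and in these bins mean lengths were 59.5 and 46.6 nt in Seb1-HTP, against 39.6 and 39.05 nt in the controls. All these shares also count substitutions on the last base of a read. The part of read length and of read ends was not tested.

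Among positions with at least 50 reads in every library, XII 455463 and XII 455461 had the highest mean substitution shares in Seb1-HTP. XII 455463 was substituted in 41.3% and 42.2% of covering Seb1-HTP reads, against 0.855% and 3.20% of control reads. Nearly all of these substitutions are on the last base of the read: 99.2% and 99.1% of them in Seb1-HTP. Where XII 455463 was not the last base, 0.714% and 0.712% of Seb1-HTP reads had the substitution, against 0.855% and 0.909% of control reads. XII 455461 behaved alike, with 98.75% and 98.8% of its Seb1-HTP substitutions on the last base. At both positions the substitution is thus found at read ends, and 9.37% and 6.57% of Seb1-HTP reads end at XII 455463. XII 455496 was different, with 27.9% and 24.9% of its Seb1-HTP substitutions on the last base. It was substituted in 18.3% and 15.3% of Seb1-HTP reads, against 1.63% and 0.374% of control reads, and in 14.0% and 12.04% against 1.63% and 0.374% where it was not the last base. XII 455499 stood at 8.50% and 7.27% in Seb1-HTP away from the last base, against 0% and 0.499% in the controls. At both positions the Seb1-HTP libraries lie above the controls, and they flank the deletion stretch on its downstream side. Frequent Seb1-HTP read ends lie close by. XII 455494 was the 3′ end of 9.07% and 7.08% of Seb1-HTP reads, and XII 455492 of 3.85% and 4.02%, with no control read at either. Only the last base itself was set apart here, and the part of other bases near a read end was not tested.

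Reads that run out of the gene into precursor sequence were few. In Seb1-HTP, 2.54% and 2.59% of 5.8S reads passed an outer limit, against 0.422% (1 read) and 0.0509% (1 read) in the controls (exact permutation p = 0.333). Of these, 1672 and 1240 Seb1-HTP reads passed the 5′ limit, towards the upstream spacer. The 3′ limit was passed by 1 and 9 reads in Seb1-HTP, and by 1 and 0 reads in the controls. Precursor reads that lie wholly in the 150 nt beside the gene and name no mature rRNA numbered 2 and 19 upstream and 0 and 27 downstream in Seb1-HTP, against 0 and 0 upstream and 0 and 1 downstream in the controls. Reads of the spacers of S. pombe could be placed only where they match S. cerevisiae, so these counts do not measure how much precursor was attached. Reads over the whole inner length numbered 7 and 16 in Seb1-HTP, and 0 and 1 in the controls. The RNAs that take part in rRNA maturation were counted beside these. Their reads too could be placed only where they match S. cerevisiae, so the counts do not measure how much of each RNA was attached. Of 8 such RNAs, 7 had enough reads to be tested and none was called in either direction with either total (edgeR; none at an unadjusted p under 0.05). Over all features 0.828% and 0.0832% were called with and without 25S, so that no call among 7 is near the background and is no result about these RNAs. NME1, the RNA of RNase MRP that cuts the upstream spacer, had 4 and 16 reads in Seb1-HTP and none in the controls. snR17a, 1 of the U3 RNAs, had 3 and 59 reads in Seb1-HTP and none in the controls. The controls hold far fewer named reads, so these counts of 0 do not set the groups apart. Others did have control reads. snR190 had 10 and 210 reads in Seb1-HTP, against 4 and 11 in the controls. snR10 had 0 and 13 reads in Seb1-HTP, against 0 and 4 in the controls. As shares of named reads the groups overlap for both, and snR10 was highest in control 2.

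Reads were divided evenly between the gene copies. Copy 1 received 50.1% (49.7 to 50.5) and 50.1% (49.7 to 50.6) of 5.8S reads in Seb1-HTP, and 44.7% (38.5 to 51.1) and 48.8% (46.5 to 51.0) in the controls. All 4 intervals include an even split. The plus strand over 5.8S held 0 and 1 reads in Seb1-HTP and none in the controls.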

How the data were processed

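RNA attached to protein was measured by CRAC in 4 libraries. The deposited files hold raw read counts, 1 whole number for each mapped interval, with strand, overlapping features and listed differences; the program was Counters 1.4.2, per the file headers. Novoalign 2.0.4 and the build ASM294v2 are named in the submitters' processing notes, yet positions and names are those of S. cerevisiae. The sources used here do not say if repeated reads were merged, so distinct intervals were counted as an alternative. Of 3452998 and 3946246 raw Seb1-HTP reads 12.5% and 8.91% mapped, and of 35034 and 202528 raw control reads 18.6% and 33.6%.

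Each read was counted for every feature its record names, and reads that name none were left out. Counts were fitted by edgeR 4.0.16 in R 4.3.3 (quasi-likelihood test) for features or 20-nt bins with at least 10 reads over the 4 libraries, with library totals as scaling and Benjamini-Hochberg adjustment at 0.05. Shares per library, 9 in all, were set against each other in exact two-sided permutation tests; after Benjamini-Hochberg adjustment no p was below 0.375. With 2 libraries a group, p-values rest on very little replication. Intervals are at 95%. Alternatives were TMM factors, DESeq2 1.42.0, other filters and bins, 5′ ends, a replicate block, and leaving out each library in turn. The scripts were tested on simulated data, where large changes were recovered at a low spread but not at the spread of these libraries, so a feature or bin that was not called is not shown to be alike in both groups. Named positions were the 5 leading intervals and 5′ ends of each group and the 5 positions with the highest mean deletion and substitution shares; the leading deletion positions of each library and the XII 455507 to 455509 stretch were added after seeing values. The genes and lists were chosen with earlier results of these data known.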

Additional observations from a re-analysis of the deposited data

How the results depend on the processing

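Over all alternatives run, the differences in first-stretch share, mean length, reads with a substitution, reads past an end, leading interval share and deletions kept their sign. The difference in deletions, -13.3 percentage points, was -1.46 without control 1 and -25.2 without control 2. It was -3.63 with distinct intervals, here with the copies kept apart and each interval scored by its first listed record. The 5.8S share of named reads, higher by 17.95 percentage points, became -8.18 against 5.8S and 18S reads alone, and that without 25S (4.60) became -4.67 with distinct intervals and ran from -1.88 to 11.1 with single libraries left out. In the feature test the RDN58-1 and RDN58-2 log2 fold changes of 2.36 and 2.16 were not called with TMM factors (3.77 and 3.63), DESeq2 (3.23 and 3.11, adjusted p = 0.984 each) or distinct intervals (0.64 and 0.37), and ran from 2.24 to 2.48 and 1.99 to 2.35 with single libraries left out. Without 25S they became -0.33 and -0.60 with distinct intervals and ran from -0.031 to 0.67 and -0.11 to 0.36. Bin 4 turned to -0.16, and without 25S to -2.14, by 5′ end. TMM and DESeq2 shifted the median feature by -0.07 and -3.14, the median bin by -1.25 and -0.85, and without 25S by 0.28 and -2.48 and by 0.10 and 0.65; leaving out 25S shifted the median bin by -2.11.

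Features called were 10, against 0 with TMM, 1 with DESeq2, 0 with distinct intervals, 0 with reads naming 1 feature, and 3 to 12 with single libraries left out. Without 25S, 1 was called, lower, against 0 with TMM, 15 with DESeq2, all higher, 0 with distinct intervals, a minimum of 1 read, reads naming 1 feature, summed copies or the replicate block, and 0 to 2 with single libraries left out. At an unadjusted p under 0.05, these counts of 0 stood at 145, 53 and 4 features with 25S (TMM, distinct, 1 name), and at 214, 18, 17, 5, 9 and 0 without it, in the order given. Bins called were 28 (23 higher), against 13 with TMM (6 higher, 7 lower), 10 with distinct intervals, 10 with the replicate block and 3 to 39 with single libraries left out, the lowest without Seb1-HTP 1. Without 25S, 1 bin was called, against 0 with TMM (18 unadjusted) and distinct intervals (16 unadjusted), 17 with DESeq2, 2 with bins of 50 nt, 2 by 5′ end, and 1 to 28 with single libraries left out, 16 without control 1 and 28 without control 2. Bin 3 of 5.8S was called with each of the 4 libraries left out. The replicate numbers share only a number (r = 0.04, 0.07, 0.13 and 0.10 between same-numbered deviations), and the replicate block left the copies and bin 3 called as before. The cause of each change was not tested. Depth is limiting in control 1, where 237 reads of 5.8S mean that a count of 0 allows up to 1.27%.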
